A study of Mus musculus with 10 samples.

Results

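Bone morphogenetic proteins (BMPs) and growth and differentiation factors (GDFs) are secreted ligands of the TGF-beta superfamily, and their activity outside the cell is held in check by secreted antagonists that bind them. The genes described here are 6 ligand genes, Bmp2, Bmp4, Bmp6, Bmp7, Gdf5 and Gdf6, and 4 antagonist genes, Chrd, Chrdl1, Grem1 and Nog. They were taken by gene symbol and role, and all 10 were found among the 32285 genes of the count table. The samples were mouse Achilles tendons of 3 genotypes, and tamoxifen was given to every mouse, controls included, at 20 mg/kg and 6 weeks of age, with harvest 4 weeks later. Mkx-CreER/flox mice (n = 3) carried a tamoxifen-inducible Cre recombinase (CreER) named after Mkx and 1 floxed Mkx allele, and were the conditional knockout of Mkx, which encodes the tendon transcription factor Mohawk. The 2 control genotypes were Mkx-CreER/+ (n = 3), with the recombinase and no floxed allele, and Mkx flox/+ (n = 4), with a floxed allele and no recombinase, which the series text writes as Mkx-flox. Which Mkx exons are floxed, how the CreER allele was built and whether it leaves Mkx intact are not stated in the labels, and recombination can occur only in cells that express the CreER.

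A BMP or GDF ligand brings together type I and type II receptors, which phosphorylate Smad1, Smad5 and Smad9, and these enter the nucleus with Smad4 and switch on target genes such as the Id family. Chordin, noggin and gremlin bind ligands directly and keep them from their receptors, and chordin is itself cut and inactivated by proteinases of the BMP1 and tolloid family. In skeletal tissues GDF5 and GDF6 are known for roles in joint and tendon formation, and BMP2, BMP4 and BMP7 for cartilage and bone formation, including ossification at ectopic sites.

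Libraries were made from total RNA by RamDA-seq, a full-length method for small RNA inputs, and held 8680934 to 22656417 counts, so that 3 counts were worth 0.126 to 0.360 CPM (counts scaled to library size, with TMM factors). Libraries are named by genotype and by their number in the count table. Mkx had 26.1, 32.4 and 30.5 CPM in Mkx-CreER/flox tendons 1, 4 and 5, against 91.4 to 93.8 CPM in Mkx-CreER/+ tendons and 121 to 187 CPM in Mkx flox/+ tendons (log2 fold change against both −2.04, edgeR adjusted p = 0.000149). The Mkx-CreER/flox libraries held the least Mkx RNA, and the Mkx-CreER/+ libraries lay below every Mkx flox/+ library. All 10 tendon cell markers were detected in every library, 5 of them fell against both controls, and their summed level was 28262 to 37992 CPM in Mkx-CreER/flox tendons, 46775 to 60042 CPM in Mkx-CreER/+ tendons and 75109 to 136548 CPM in Mkx flox/+ tendons. Of 22 skeletal muscle markers, all detected in every library, 6 rose, and the summed level was 71910 to 141368 CPM in Mkx-CreER/flox tendons, 30954 to 84162 CPM in Mkx-CreER/+ tendons and 17185 to 57137 CPM in Mkx flox/+ tendons. Ttn weighed most in that sum, at a mean of 33713 CPM. Gene by gene, 18 of the 22 had positive and 4 negative log2 fold changes against both controls, with a median of 0.46. Against Mkx-CreER/+ alone 14 were positive and 8 negative, and edgeR called 0. Of 12 macrophage markers, 11 fell in Mkx-CreER/flox tendons, and their summed level was 761 to 853 CPM there, against 1101 to 2724 CPM in Mkx-CreER/+ tendons and 1653 to 2708 CPM in Mkx flox/+ tendons. Of 10 markers each, 1 for Schwann cells and nerve, 2 for mural cells and 2 for endothelial cells rose against both controls. The summed Schwann cell level was 491 to 2345 CPM in Mkx-CreER/flox tendons, 442 to 1015 CPM in Mkx-CreER/+ tendons and 480 to 867 CPM in Mkx flox/+ tendons, so that the 3 ranges overlapped. That sum is weighted to Pmp22, the most abundant of the 10, at a mean of 635 CPM. Gene by gene, all 10 had positive log2 fold changes against both controls, with a median of 2.28. Of these, 6 had an unadjusted p under 0.05 in edgeR and DESeq2 called 4. The mural level was 1315 to 1841 CPM in Mkx-CreER/flox, 816 to 1143 CPM in Mkx-CreER/+ and 791 to 1059 CPM in Mkx flox/+ tendons. The endothelial level was 647 to 785 CPM in Mkx-CreER/flox, 526 to 618 CPM in Mkx-CreER/+ and 416 to 590 CPM in Mkx flox/+ tendons. Of 12 paratenon and sheath markers 1 fell, at a summed 4606 to 7684 CPM in Mkx-CreER/flox, 6541 to 13884 CPM in Mkx-CreER/+ and 9394 to 17858 CPM in Mkx flox/+ tendons. That sum is weighted to Prg4, at a mean of 8419 CPM, and 11 of the 12 had negative log2 fold changes against both controls (median −0.43). Of 7 chondrocyte and enthesis markers tested 2 fell, at a summed 114 to 176 CPM in Mkx-CreER/flox, 104 to 185 CPM in Mkx-CreER/+ and 192 to 271 CPM in Mkx flox/+ tendons. The mural and endothelial sums were highest in Mkx-CreER/flox without overlap, while the paratenon and chondrocyte sums overlapped those of Mkx-CreER/+. Of 8 adipocyte and 5 erythroid markers tested edgeR called 0, with 1 and 2 at an unadjusted p under 0.05, and DESeq2 called 0 and 1. Of all genes tested against both controls, edgeR called 1.62% as lower and 3.03% as higher, and 20.7% had an unadjusted p under 0.05. The part of these shifts in the values below was not tested, except for muscle, whose marker score was entered as a covariate. Fewer cells of a type and less RNA per cell cannot be told apart in RNA from whole tendon, and p-values measure the spread between these samples, which the labels do not tie to separate animals.

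Promoter sequence was at hand for 4 of the 10 genes, and those printed here are that of Chrd, the single gene of the 10 that passed the test, and, from the BMP targets, that of Id4, the single one that did. Each line gives the 250 bases before the RefSeq transcription start in mouse build GRCm38.p6, 5′ to 3′ on the gene's strand. Capitals mark GGCGCC, which reads the same on both strands and is known as a sequence that BMP-regulated Smads can bind.

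Chrd promoter, chr16:20732877-20733126, plus strand: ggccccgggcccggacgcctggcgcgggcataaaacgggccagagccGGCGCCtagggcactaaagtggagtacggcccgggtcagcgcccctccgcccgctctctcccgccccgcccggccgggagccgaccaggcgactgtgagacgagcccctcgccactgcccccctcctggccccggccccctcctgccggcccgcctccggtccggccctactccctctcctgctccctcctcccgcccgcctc

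Id4 promoter, chr13:48260866-48261115, plus strand: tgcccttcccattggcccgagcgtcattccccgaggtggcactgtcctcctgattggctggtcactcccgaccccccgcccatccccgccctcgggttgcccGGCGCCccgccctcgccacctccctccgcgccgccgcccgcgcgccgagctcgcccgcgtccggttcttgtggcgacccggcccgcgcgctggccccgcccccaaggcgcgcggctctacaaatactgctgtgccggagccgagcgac

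GGCGCC began 203 bases before the start of Chrd and 148 bases before the start of Id4. It stood in 3149 of 32851 promoters of the same length, or 9.586%, and in 2 of the 4 promoters of the ligand and antagonist genes, those of Chrd and Grem1, but not in those of Bmp4 and Bmp6. GGGCGG, searched on both strands as the core of the GC box that Sp1 binds, occurred 4 times in the Chrd window and 5 times in the Id4 window, and at least once in 32.742% of all promoters. Both windows were rich in G and C, 78.0% for Chrd and 75.6% for Id4, against a median of 52.4% over all promoters, and TATAAA was in neither. CANNTG, the E-box letters bound by basic helix-loop-helix factors, was in neither window, although 66.217% of all promoters held it, while the Bmp4 window held it 3 times. These matches describe letters in a window and were not tested as sites.

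Chrdl1, Bmp2 and Bmp4 were the most abundant of the 10 genes per length of exon, and Gdf6 the least. As CPM per kilobase of exon, averaged over the 10 libraries, Chrdl1 stood at 29.6, Bmp2 at 19.7, Bmp4 at 18.9, Chrd at 9.15 and Bmp6 at 3.13. Gdf5 followed at 1.89, Grem1 at 0.976, Nog at 0.864, Bmp7 at 0.388 and Gdf6 at 0.0424 CPM per kilobase. Bmp2 and Bmp4 could not be ordered, since Bmp2 was the higher in 5 of the 10 libraries and the longest transcript as the length put Bmp4 first, and Grem1 was above Nog in 6 of 10. Bmp4 was above Chrd in all 10 libraries, and so was Chrd above Bmp6.

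**Figure D1:**
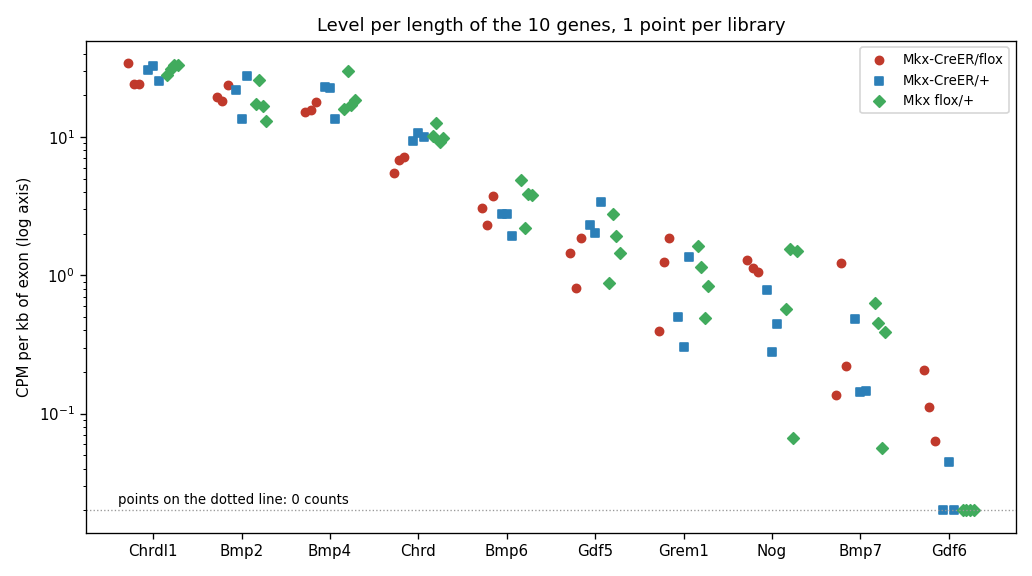
Level per length of the 10 genes, as TMM-scaled CPM per kilobase of exon on a log axis, with 1 point per library for Mkx-CreER/flox, Mkx-CreER/+ and Mkx flox/+ tendons. The genes run in order of their mean, with Chrdl1 at 29.6 and Gdf6 at 0.0424; points on the dotted line had 0 counts.

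In Mkx-CreER/flox tendons, compared with the mean of both control genotypes, Chrd fell to 63.4% of its control level and none of the other 8 genes that could be tested passed. The test was edgeR's quasi-likelihood test with Benjamini-Hochberg adjustment over 16017 genes, at an adjusted p under 0.05, and 9 of the 10 genes passed its filter on low counts. Among those 9, 1 fell and 0 rose, beside 1.62% of all tested genes that fell, 3.03% that rose and 4.65% called in either direction. An unadjusted p under 0.05 was reached by 1 of the 9, again Chrd, and by 20.7% of all genes. The median log2 fold change of the 9 was −0.00, and that of all 16017 genes was 0.02. With 9 genes, 1 call is a description of Chrd and says nothing particular of the group.

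Chrd (ENSMUSG00000006958, chr16:20733127-20742384, plus strand, GRCm38) encodes chordin, the secreted antagonist that binds BMP2 and BMP4 among others. Its level was 34.6, 42.8 and 44.6 CPM in Mkx-CreER/flox tendons 1, 4 and 5, against 58.5, 66.7 and 62.9 CPM in Mkx-CreER/+ tendons 1, 2 and 4 and 64.0, 79.2, 57.6 and 61.6 CPM in Mkx flox/+ tendons 1 to 4. All 3 Mkx-CreER/flox libraries lay below all 7 control libraries, which was so for 3.12% of the genes tested, and the control genotypes overlapped. No other of the 9 genes separated in either direction, beside 6.92% of all genes. Mean levels were 40.6 ± 5.34 CPM in Mkx-CreER/flox (SD, n = 3), 62.7 ± 4.09 CPM in the 3 Mkx-CreER/+ tendons and 65.6 ± 9.43 CPM in the 4 Mkx flox/+ tendons. The log2 fold change was −0.66 (SE 0.157, 95% interval −0.99 to −0.32, edgeR adjusted p = 0.0326), and DESeq2 gave an adjusted p of 0.00369. These values rest on 382 to 871 Chrd counts per Mkx-CreER/flox library and 514 to 1496 per control library. Thpo on the other strand overlaps 3.82% of the Chrd exon length, and whether reads were counted by strand is not stated in the labels.

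The direction held in all 17 alternatives tried, at log2 fold changes of −0.74 to −0.57, but the call did not. With the muscle marker score as a covariate it was −0.60 (SE 0.174, edgeR adjusted p = 0.0983), and leaving out 1 library ended the call in 6 of 10 cases. The score entered was 10.53, 9.42 and 9.90 in Mkx-CreER/flox 1, 4 and 5 and 8.95, 10.48 and 8.99 in Mkx-CreER/+ 1, 2 and 4. In Mkx flox/+ 1 to 4 it was 7.80, 8.12, 9.65 and 9.83, so that the genotypes overlapped. Without Mkx-CreER/flox 1 the log2 fold change was −0.57 (edgeR adjusted p = 0.0849). The edgeR adjusted p was 0.0910 when Mkx-CreER/flox 4 was left out, 0.0656 and 0.0793 for Mkx-CreER/+ 1 and 2, and 0.0539 and 0.0517 for Mkx flox/+ 1 and 2.

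**Figure D2:**
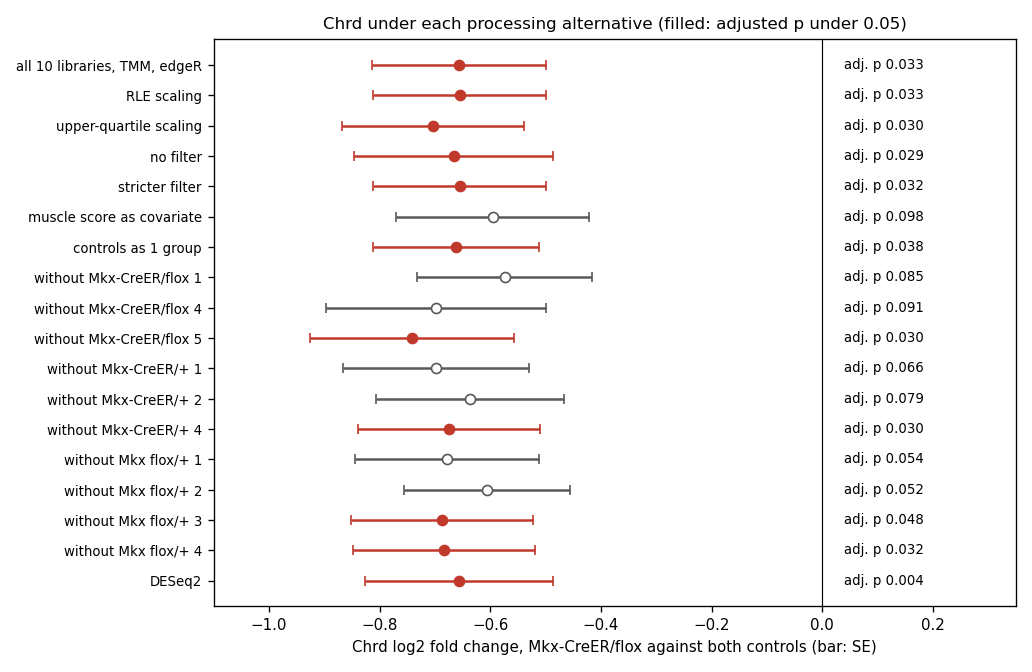
Chrd log2 fold change of Mkx-CreER/flox tendons against both controls (horizontal axis, bars show the SE) as reported and under each of 17 alternatives, with filled points where the adjusted p is under 0.05. Every value lies between −0.74 and −0.57, and 7 of the 17 alternatives miss the threshold.

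Against each control genotype alone the size of the Chrd difference was similar. Against Mkx flox/+ Chrd fell, with a log2 fold change of −0.69 (SE 0.171, edgeR adjusted p = 0.0266), the single call and the single unadjusted p under 0.05 among the 9 genes. In that comparison 7.27% of all genes were called, 2.90% as lower and 4.37% as higher, and 23.0% had an unadjusted p under 0.05. That call was lost with the muscle score (−0.60, SE 0.202, edgeR adjusted p = 0.128), with only the genotypes compared in the fit (0.0521) and without Mkx-CreER/flox 1 or 4 or Mkx flox/+ 1 or 2. Against Mkx-CreER/+ it was −0.63 (SE 0.180, 95% interval −1.01 to −0.24, edgeR adjusted p = 0.329) and did not pass. In that comparison 0 of the 9 genes were called by edgeR or by DESeq2, and 1, Chrd, had an unadjusted p under 0.05 in edgeR. Of all genes edgeR called 0.00624%, which was 1 gene, Mkx, and 10.7% had an unadjusted p under 0.05. DESeq2 called more there, with 11 of 12 macrophage and 3 of 10 tendon cell markers, and 0 of 22 skeletal muscle markers. Its share of all genes in that comparison is not given here. The comparisons with the 2 control genotypes share the Mkx-CreER/flox libraries.

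Between the control genotypes, Mkx-CreER/+ against Mkx flox/+, 0 of the 9 genes were called by edgeR, 0 had an unadjusted p under 0.05 and DESeq2 called 0. Of all genes edgeR called 0.00%, and 4.98% had an unadjusted p under 0.05. DESeq2 called 5 of 10 tendon cell markers and 0 of 12 macrophage markers there, and its share of all genes is not given here. Chrd differed by −0.06 on the log2 scale (SE 0.168, 95% interval −0.42 to 0.29). Bmp6, which encodes a ligand best known for setting hepcidin levels in the liver, came closest, at 9.75 ± 1.96 CPM in the 3 Mkx-CreER/+ tendons (SD) and 14.3 ± 4.32 CPM in the 4 Mkx flox/+ tendons, a log2 fold change of −0.56 (95% interval −1.17 to 0.05).

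**Figure D3:**
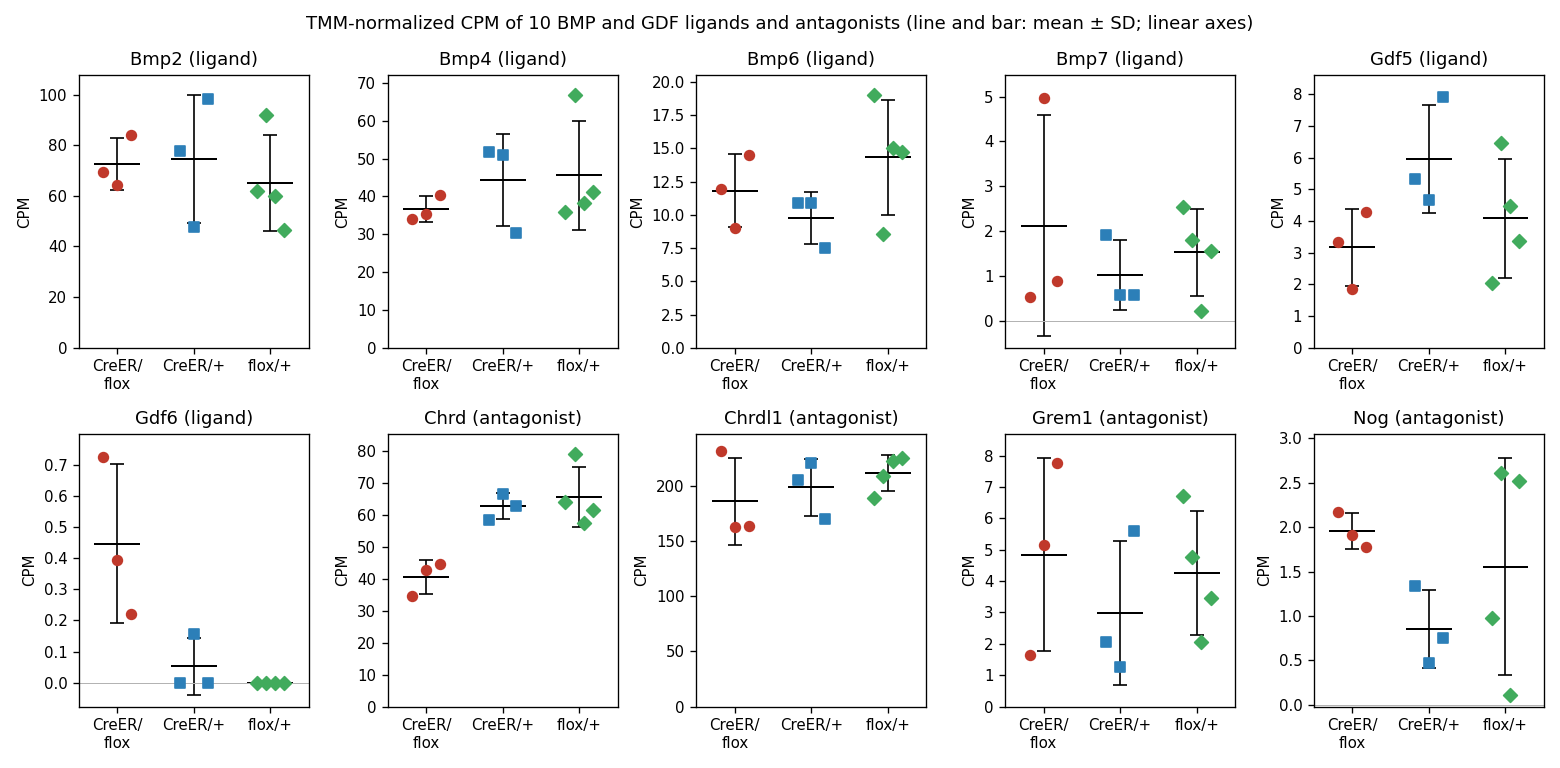
TMM-scaled CPM of each of the 10 genes in each library, on linear axes of their own, for Mkx-CreER/flox, Mkx-CreER/+ and Mkx flox/+ tendons, with the mean as a line and the SD as a bar. Chrd sits at 34.6 to 44.6 CPM in Mkx-CreER/flox tendons and at 57.6 to 79.2 CPM in the controls; Bmp7, near 1 CPM, scatters widely within each genotype.

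Among the ligands, Bmp2 and Bmp4 carried most of the RNA and neither was called. Bmp2 (chr2:133552159-133562885) had 69.3, 64.3 and 84.0 CPM in Mkx-CreER/flox tendons 1, 4 and 5, against 77.7, 47.7 and 98.2 CPM in Mkx-CreER/+ tendons and 61.8, 91.9, 59.8 and 46.6 CPM in Mkx flox/+ tendons. The groups overlapped, with a log2 fold change against both controls of 0.06 (SE 0.228, 95% interval −0.43 to 0.55, edgeR adjusted p = 0.921). Bmp4 (chr14:46383520-46390669) had 33.9, 35.3 and 40.4 CPM in Mkx-CreER/flox tendons, against 51.9, 51.1 and 30.4 CPM in Mkx-CreER/+ tendons and 35.9, 66.9, 38.2 and 41.2 CPM in Mkx flox/+ tendons. Its Mkx-CreER/flox libraries sat at the low end of the controls without leaving their range, with a log2 fold change of −0.30 (SE 0.223, 95% interval −0.77 to 0.18, edgeR adjusted p = 0.494).

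The library-to-library spread of Bmp2 and Bmp4 was narrower in the 3 Mkx-CreER/flox tendons than in the 7 controls, which pool 2 genotypes. Coefficients of variation were 14.1% against 29.8% for Bmp2 and 9.37% against 27.5% for Bmp4, a description that was not tested. The spread was wider in Mkx-CreER/flox than in the pooled controls for Chrd (13.1% against 11.3%), Chrdl1 (21.2% against 9.82%), Bmp7 (115% against 65.1%) and Grem1 (63.5% against 55.3%), and narrower for the remaining genes. By control genotype it was 6.53% in Mkx-CreER/+ and 14.4% in Mkx flox/+ for Chrd, and 77.4% and 46.7% for Grem1. For both genes Mkx-CreER/flox thus lay between the control genotypes. Bmp2 made up 47.3 to 49.8% of the summed ligand level per kilobase in Mkx-CreER/flox tendons, against 32.6 to 59.3% in the controls. The widest contrast was among Mkx-CreER/+ libraries, where number 4 had the most Bmp2 and the least Bmp4 of all 10 libraries.

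Bmp6 (chr13:38345107-38500302) averaged 11.8 ± 2.73 CPM in Mkx-CreER/flox tendons (SD, n = 3), against 9.75 ± 1.96 CPM in the 3 Mkx-CreER/+ tendons and 14.3 ± 4.32 CPM in the 4 Mkx flox/+ tendons, so that its level lay between those of the controls. The log2 fold change against both was −0.00 (95% interval −0.55 to 0.55). Bmp7, which encodes a ligand known for kidney and bone formation, had 0.543, 4.96 and 0.887 CPM in Mkx-CreER/flox tendons 1, 4 and 5, against 0.578 to 1.92 CPM in Mkx-CreER/+ tendons and 0.227 to 2.53 CPM in Mkx flox/+ tendons. Number 4 alone stood above the controls, and the log2 fold change of 0.83 (SE 0.716, 95% interval −0.71 to 2.36) became −0.77 without that library.

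Gdf5 and Gdf6, the ligands known for joint and tendon formation, were both low, and Gdf6 was close to undetected. Gdf5 (chr2:155941023-155945367) had 3.35, 1.87 and 4.29 CPM in Mkx-CreER/flox tendons, against 5.33, 4.68 and 7.91 CPM in Mkx-CreER/+ tendons and 2.04, 6.47, 4.49 and 3.36 CPM in Mkx flox/+ tendons. All 3 Mkx-CreER/flox values lay below all 3 Mkx-CreER/+ values and overlapped those of Mkx flox/+. The share of all genes with such an order of 3 against 3 libraries was not counted, so it is a description only. The log2 fold change was −0.93 against Mkx-CreER/+ (95% interval −1.86 to 0.01, edgeR adjusted p = 0.468) and −0.65 against both controls (95% interval −1.47 to 0.16, edgeR adjusted p = 0.360). An antisense gene model, Gm15557, overlaps 40.3% of the Gdf5 exon length, so its value is uncertain to that extent. Gdf6 (chr4:9844372-9862345) had 8, 8 and 3 counts in Mkx-CreER/flox tendons 1, 4 and 5, against 0, 3 and 0 counts in Mkx-CreER/+ tendons and 0 counts in each of the 4 Mkx flox/+ tendons. That is 19 counts in 3 libraries against 3 counts in 7, a ratio relative to pooled TMM-scaled library size of 14.3. Its exact 95% interval of 4.20 to 75.3 covers counting error in these libraries only and leaves out the differences between libraries. Gdf6 did not pass the filter on low counts, and when no filter was applied it did not pass the test against both controls (edgeR adjusted p = 0.0863). In each of the 7 control libraries and in Mkx-CreER/flox 5 the level was at or below 3 counts, and reads without molecular identifiers are not independent molecules.

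Among the antagonists, Chrdl1 took the largest share of RNA and did not pass. Chrdl1 (chrX:143285674-143394262) encodes chordin-like 1, a chordin relative that binds BMP4, and had 231, 163 and 164 CPM in Mkx-CreER/flox tendons, against 205, 221 and 170 CPM in Mkx-CreER/+ tendons and 189, 209, 223 and 225 CPM in Mkx flox/+ tendons. Number 1 of the Mkx-CreER/flox libraries was the highest of all 10 and the other two were the lowest, and the log2 fold change against both controls was −0.14 (SE 0.163, 95% interval −0.49 to 0.21, edgeR adjusted p = 0.686). Chrd made up 13.3, 20.5 and 20.8% of the summed antagonist level per kilobase in Mkx-CreER/flox tendons, against 21.5 to 27.3% in the 7 controls, and the ranges did not overlap. That share rests on the Chrd values given above and is not a separate result. The ratio of Chrd to Chrdl1 per kilobase did overlap, at 0.161 to 0.294 in Mkx-CreER/flox tendons and 0.279 to 0.409 in the 7 controls. Of the summed level per kilobase of the 10 genes, the 4 antagonists together made up 46.6 ± 4.66% in Mkx-CreER/flox (SD, n = 3). They made up 46.9 ± 4.12% in the 3 Mkx-CreER/+ tendons and 50.1 ± 5.05% in the 4 Mkx flox/+ tendons, and the genotypes overlapped. Both this share and that of Chrd were taken per kilobase of exon and depend on that choice of length. With the longest transcript as the length, Chrdl1 averaged 48.8 CPM per kilobase over the 10 libraries, against 29.6 per kilobase of exon. Shares by the longest transcript were not computed.

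Grem1 and Nog encode gremlin 1 and noggin, and both were at a few CPM. Grem1 (chr2:113746164-113758646) had 1.63, 5.15 and 7.76 CPM in Mkx-CreER/flox tendons, against 1.26 to 5.59 CPM in Mkx-CreER/+ tendons and 2.05 to 6.72 CPM in Mkx flox/+ tendons. The groups overlapped, and the log2 fold change against both controls was 0.45 (SE 0.508, 95% interval −0.64 to 1.54). Nog (chr11:89300638-89302332) had 2.17, 1.91 and 1.77 CPM in Mkx-CreER/flox tendons, against 1.33, 0.473 and 0.757 CPM in Mkx-CreER/+ tendons and 0.973, 2.61, 0.114 and 2.52 CPM in Mkx flox/+ tendons. Its 3 Mkx-CreER/flox values lay above all 3 Mkx-CreER/+ values and inside the wide range of Mkx flox/+. As for Gdf5, the share of all genes with an order of 3 against 3 libraries was not counted. The log2 fold change of Nog was 0.79 against both controls (SE 0.639, 95% interval −0.57 to 2.16, edgeR adjusted p = 0.534).

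**Figure D4:**
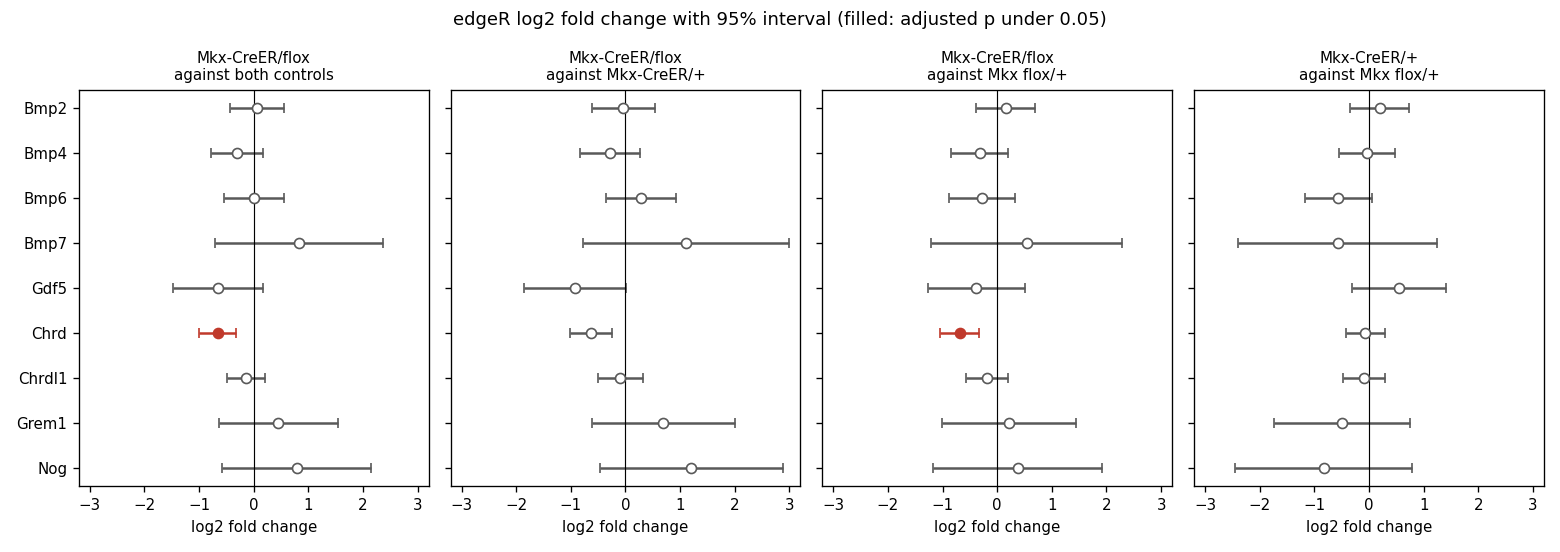
edgeR log2 fold changes with 95% intervals for the 9 tested genes in 4 comparisons, from left Mkx-CreER/flox against both controls, against Mkx-CreER/+, against Mkx flox/+, and Mkx-CreER/+ against Mkx flox/+, with filled points where the adjusted p is under 0.05. Chrd is filled in the comparisons with both controls (−0.66) and with Mkx flox/+ (−0.69), and the intervals of Bmp7, Grem1 and Nog span more than 2 log2 units.

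For Chrdl1 the intervals were narrow, with differences below −0.49 and above 0.21 outside the 95% interval, whereas for Bmp7 and Nog rises of 4-fold were inside it.

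The genes whose level followed Chrd most closely over the 10 libraries, by Pearson correlation of log2 CPM with predicted gene models left out, were Cables1 (r = 0.952), Carhsp1 (r = 0.952) and Gna15 (r = 0.936). Over the 7 controls alone r was 0.797 for Cables1, 0.678 for Carhsp1 and 0.271 for Gna15. All 10 points share their library scaling, and the 10-library values include the genotype difference. Cables1 fell in Mkx-CreER/flox tendons, with a log2 fold change of −0.95 (SE 0.220, edgeR adjusted p = 0.0304), and Gna15, a G protein alpha subunit, fell too, at −1.54 (SE 0.328, edgeR adjusted p = 0.0244). Carhsp1 was at −0.33 (SE 0.136, edgeR adjusted p = 0.187) and did not pass.

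In the rest of the pathway, 1 gene passed the comparison with both controls. Beside the counts below, edgeR called 4.65% of all genes against both controls and 7.27% against Mkx flox/+. An unadjusted p under 0.05 was reached by 20.7% and 23.0% of all genes in these comparisons. DESeq2 called 1447 genes against both controls, and its counts against each control genotype alone are not given here. Of 13 other BMP and GDF ligand genes, 8 could be tested and 0 rose or fell, with a median log2 fold change of 0.00, 1 gene at an unadjusted p under 0.05 in edgeR and 0 calls by DESeq2. Bmp5, a ligand of skeletal growth, had the smallest p of these and lay above all 7 controls, as did 3.81% of all genes tested. Its levels were 7.51, 5.25 and 6.14 CPM in Mkx-CreER/flox tendons, against 4.29 to 5.10 CPM in Mkx-CreER/+ and 2.16 to 3.63 CPM in Mkx flox/+ tendons. Bmp5 did not pass against both controls (log2 fold change 0.79, SE 0.261, edgeR adjusted p = 0.0973) and rose by 1.15 against Mkx flox/+ (SE 0.300, edgeR adjusted p = 0.0326). The antisense model Gm26903 overlaps 46.7% of its exon length.

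Of 16 other secreted antagonists of BMPs and activins, 13 could be tested and 0 passed, with a median of 0.10, 1 gene at an unadjusted p under 0.05 in edgeR and 0 calls by DESeq2. That gene was Sostdc1, which encodes a sclerostin relative, at 1.27, 6.33 and 19.8 CPM in Mkx-CreER/flox tendons, against 1.73 to 5.47 CPM in Mkx-CreER/+ and 2.50 to 4.28 CPM in Mkx flox/+ tendons. Its Mkx-CreER/flox libraries lay on both sides of the controls (log2 fold change 1.35, SE 0.561, edgeR adjusted p = 0.197). The value was 0.0987 without Mkx-CreER/flox 5, and without Mkx-CreER/flox 1 it was 1.83 and passed (edgeR adjusted p = 0.0433). Of the proteinases that cut chordin, Bmp1 and Tll1 could be tested and 0 passed, with a median of −0.27, 1 gene at an unadjusted p under 0.05 in edgeR and 0 calls by DESeq2. Bmp1, which also trims procollagens, had 55.9, 107 and 128 CPM in Mkx-CreER/flox tendons, against 117 to 133 CPM in Mkx-CreER/+ and 146 to 183 CPM in Mkx flox/+ tendons (log2 fold change −0.56, SE 0.210, edgeR adjusted p = 0.146). Against Mkx flox/+ alone edgeR called 0 of these proteinases, whereas DESeq2 called Bmp1 as lower (edgeR log2 fold change −0.75, SE 0.229, adjusted p = 0.0630).

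All 14 receptor and co-receptor genes could be tested against both controls, and 0 passed, with a median of −0.00, 3 at an unadjusted p under 0.05 in edgeR and 0 calls by DESeq2. The share of all genes at that unadjusted p was 20.7%. Acvr2a, a type II receptor, had 83.6, 57.8 and 49.8 CPM in Mkx-CreER/flox tendons, against 40.9 to 60.2 CPM in Mkx-CreER/+ and 28.4 to 42.5 CPM in Mkx flox/+ tendons. It lay at 0.58 against both controls (SE 0.192, edgeR adjusted p = 0.0998) and rose by 0.77 against Mkx flox/+ (SE 0.216, edgeR adjusted p = 0.0430). Bmpr1b, a type I receptor with a preference for GDF5, fell against Mkx flox/+, at a log2 fold change of −0.67 (SE 0.179, edgeR adjusted p = 0.0365), and was named after its values were seen. Its levels were 55.9, 38.2 and 40.1 CPM in Mkx-CreER/flox tendons, against 48.9 to 53.5 CPM in Mkx-CreER/+ and 59.6 to 79.7 CPM in Mkx flox/+ tendons, so that both genotypes with CreER lay below Mkx flox/+. These were the 2 receptor calls that edgeR made against Mkx flox/+; DESeq2 called 3, the additional one being Tgfbr3, a TGF-beta co-receptor named after its values were seen (edgeR log2 fold change −0.77, SE 0.272, adjusted p = 0.102). The calls of Acvr2a, Bmpr1b and Bmp5 against Mkx flox/+ were all lost with the muscle score in the fit, at log2 fold changes of 0.83, −0.64 and 1.18 and edgeR adjusted p-values between 0.120 and 0.139. They were also lost with only the genotypes compared in the fit, and that of Bmp5 with no filter on low counts. Leaving out 1 library ended the Acvr2a and Bmp5 calls in 6 of 7 fits each and the Bmpr1b call in 5 of 7, with log2 fold changes of 0.51 to 0.91 for Acvr2a, 0.99 to 1.29 for Bmp5 and −0.88 to −0.57 for Bmpr1b.

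All 10 Smads and Smad regulators were tested and 0 passed against both controls, with 0 at an unadjusted p under 0.05 in edgeR and 0 calls by DESeq2. Their log2 fold changes ran between −0.34 for Ski, a co-repressor of Smads, and 0.25, with a median of 0.07. Against Mkx flox/+ alone edgeR again called 0 of the 10, and DESeq2 called Ski as lower (edgeR log2 fold change −0.54, SE 0.179, adjusted p = 0.0815). Of 11 BMP target genes 10 could be tested, of which 1 rose and 9 missed the threshold. Their log2 fold changes ran between −0.21 and 1.95, with a median of 0.08, 6 of them positive and 4 negative. The gene at 1.95 was among those that missed the threshold. The one that rose was Id4, an inhibitor of basic helix-loop-helix factors, at 7.15, 9.23 and 10.5 CPM in Mkx-CreER/flox tendons, against 4.22, 2.05 and 3.99 CPM in Mkx-CreER/+ tendons and 5.45, 3.29, 3.47 and 5.03 CPM in Mkx flox/+ tendons. All 3 Mkx-CreER/flox libraries lay above all 7 controls, as they did for 3.81% of all genes tested, with a log2 fold change of 1.23 (SE 0.284, edgeR adjusted p = 0.0302). The call was lost with the muscle score (1.43, edgeR adjusted p = 0.0554) and in 7 of 10 fits without 1 library, with edgeR adjusted p up to 0.0928 and log2 fold changes of 1.08 to 1.34, and against neither control genotype alone did Id4 pass in edgeR, whereas DESeq2 called it against both of them (adjusted p = 0.0320 against Mkx-CreER/+ and 0.0254 against Mkx flox/+). Id1, a target with a long record as a readout of BMP signalling and named after its values were seen, was at 26.0 ± 9.41 CPM in Mkx-CreER/flox (SD, n = 3), 31.4 ± 10.6 CPM in the 3 Mkx-CreER/+ tendons and 23.2 ± 6.78 CPM in the 4 Mkx flox/+ tendons, with a log2 fold change of −0.05 (SE 0.265) against both controls.

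**Figure D5:**
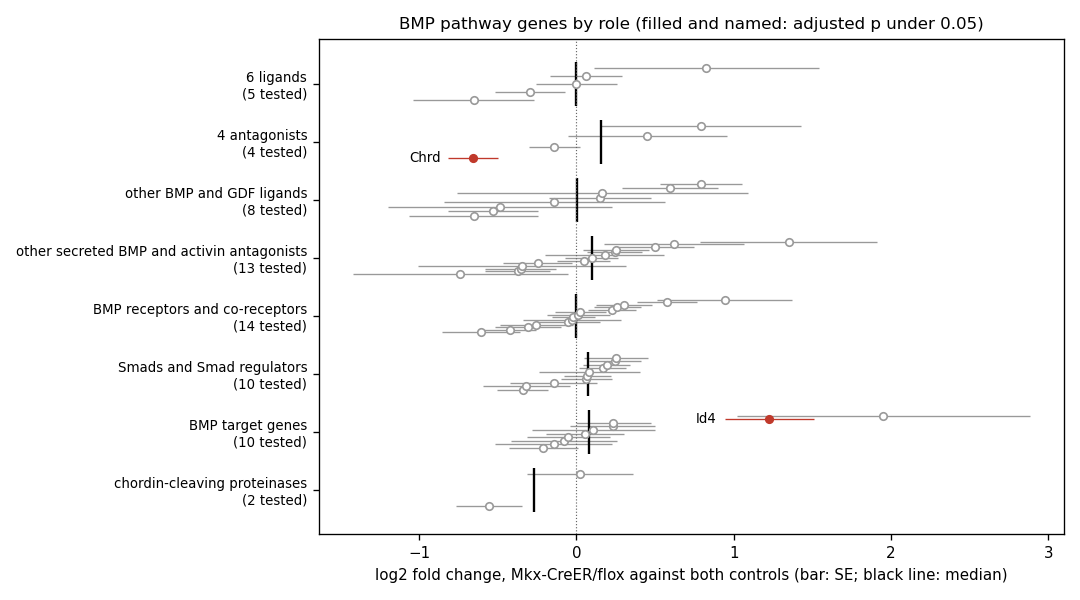
log2 fold changes of Mkx-CreER/flox tendons against both controls (horizontal axis, bars show the SE) for the tested ligand and antagonist genes and for the other genes of the BMP pathway by role, with black lines for the median of each list. Chrd (−0.66) and Id4 (1.23) are filled, having passed at an adjusted p under 0.05, and the list medians lie between −0.27 and 0.16.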

How the data were processed

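Per the labels, RNA of 10 Achilles tendons was sequenced as RamDA-seq libraries on a NovaSeq instrument. The authors deposited 1 table of raw read counts per Ensembl gene, made with fastp, STAR and build mm10 per the submitters' processing notes; neither the labels nor those notes name the counter, the annotation or the strand setting. Symbols came from GENCODE vM21 (GRCm38) with RefSeq synonyms, and 32158 of 32285 IDs matched one. Table columns gave genotype by name. Genes were filtered with filterByExpr (16017 left), scaled by TMM and tested with edgeR 4.0.16 (quasi-likelihood, robust, 1 fit over all 10 libraries, R 4.3.3), tested on simulated data; DESeq2 1.42.0 was an alternative. Intervals are 95%. Alternatives were other scalings, filters, a muscle marker score (mean log2 CPM of 22 genes) as covariate, pooled controls, fits of the compared genotypes only and leaving out each library. Libraries of 1 genotype differed by 21.7 to 108 times counting error (chi-square per degree of freedom), and no pair of them agreed within counting error. The 10 genes and all lists were chosen with earlier results of these data known. Named beside the 10 genes were Mkx, up to 4 called genes of each pathway list or else the one with the smallest p, and the 3 genes most correlated with Chrd, the called one of the 10; Bmpr1b, Tgfbr3 and Id1 were named after their values were seen.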

Additional observations from a re-analysis of the deposited data

How the results depend on the processing

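No paired analysis was possible because the replicate numbers in the labels are not those of the Mkx-CreER/flox and Mkx-CreER/+ columns, so the planned replicate block was not run. Against both controls, 744 genes were called over all libraries, 121 with the muscle score, 1447 by DESeq2, and 64 to 1114 when 1 library was left out. Leaving out Mkx-CreER/flox 1 or 4 gave 213 or 64 genes, Mkx-CreER/+ 1 or 2 gave 76 or 67, and Mkx flox/+ 1, 2 or 3 gave 246, 352 or 379. Of the ligands and antagonists 1 was called against both controls and against Mkx flox/+, 0 with the muscle score in both, 0 with only the genotypes compared against Mkx flox/+, and 0 to 1 when 1 library was left out. Chrd kept its sign in every fit against a control.

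The values that changed sign were none of them called, in any of these fits. Bmp6 against both controls was 0.00 (0.00132) with RLE scaling, Bmp2 against Mkx-CreER/+ was 0.17 with the muscle score, and Bmp7 in Mkx-CreER/+ against Mkx flox/+ was 0.13 with it. When 1 library was left out, the log2 fold change against both controls ran between −0.19 and 0.16 for Bmp6, −0.77 and 1.25 for Bmp7, −0.0722 and 0.17 for Bmp2 and −0.0565 and 0.86 for Grem1. Against Mkx-CreER/+ it ran between −0.28 and 0.19 for Bmp2 and −0.49 and 1.87 for Bmp7. Against Mkx flox/+ it ran between −1.06 and 0.97 for Bmp7, −0.30 and 0.59 for Grem1 and −0.0532 and 0.77 for Nog. In Mkx-CreER/+ against Mkx flox/+ it ran between −0.24 and 0.47 for Sostdc1, −0.0486 and 0.44 for Bmp2, −0.16 and 0.21 for Bmp4, −0.17 and 0.0109 for Chrdl1 and −0.12 and 0.0387 for Chrd. The cause was not tested.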
